A study of Mus musculus with 8 samples.

Results

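The translation initiation and elongation factors were followed in inguinal white adipose tissue (iWAT) of the mouse. Members were all genes whose symbol starts with Eif and a digit, or with Eef1 or Eef2, leaving out the eIF2 kinases and pseudogenes. This rule, which uses no measured value, took 64 of the 17264 genes listed in any table. The tissue came from male C57BL/6 mice, 9 weeks of age, after 7 days at 4 °C, a treatment that both groups shared and that drives the beiging of white fat. Both groups carried Ythdf1 alleles with exon 4 between loxP sites, Ythdf1 flox/flox. The control group (Y1CTL) had no Cre, and the other group (Y1cKO) also carried Adipoq-Cre, which acts in adipocytes and not in the other cells of the tissue. RNA-seq measured transcripts and Ribo-seq the mRNA fragments covered by ribosomes, with 2 libraries per genotype and assay and 8 in all. Nothing in the labels says that replicates came from separate animals, so that the p-values cover only how far libraries of a group lay apart, part of which may be technical.

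Translation starts when eIF1, eIF1A, eIF3, eIF5 and the ternary complex of eIF2, GTP and initiator tRNA load the small ribosomal subunit. The cap-binding complex of eIF4E, the scaffold eIF4G and the helicase eIF4A then brings this subunit to the mRNA. The 4E-BP proteins, Eif4ebp1 to Eif4ebp3, occupy eIF4E until mTOR phosphorylates them. eIF2B recharges eIF2 with GTP, and eIF5B joins the large subunit. During elongation eEF1A delivers aminoacyl-tRNA, the eEF1B subunits recharge eEF1A, eEF2 moves the ribosome along the mRNA, and eIF5A relieves stalling. YTHDF1 is a reader of m6A, a methyl mark on mRNA, and is known to promote the translation of marked mRNAs, so the comparison asks whether the machinery of translation itself stood at other levels in the tissue without it in adipocytes.

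Many mRNAs of this machinery are TOP mRNAs, which begin with a C followed by a run of pyrimidines and whose translation follows mTOR and LARP1. Of the members, 9 were listed as known TOP mRNAs (Eef1a1, Eef1b2, Eef1d, Eef1g, Eef2, Eif3e, Eif3f, Eif3h and Eif4b). RefSeq promoters of GRCm38.p6 matched 50 of the 64 members by symbol. The 30 bases around the annotated start, 15 before and 15 from the start on, are shown for 3 TOP members and for 2 subunits of eIF3 outside that list, because the TOP members moved together between control libraries (described with the replicates). The longest run of C and T is in capitals.
Eef1a1 (chr9:78481710-78481739, minus strand): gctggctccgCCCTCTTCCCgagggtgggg
Eif3f (chr7:108934400-108934429, plus strand): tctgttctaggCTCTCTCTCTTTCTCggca
Eef2 (chr10:81176616-81176645, plus strand): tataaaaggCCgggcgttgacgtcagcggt
Eif3l (chr15:79075208-79075237, plus strand): gcgcggagTTCTTCTTCCgctctctcccac
Eif3a (chr19:60790679-60790708, minus strand): cggggCTCgggcggcggcgctgccgccgcg
Eef1a1, Eif3f and Eif3l have runs of 10, 15 and 10 pyrimidines over the annotated start, whereas Eef2 and Eif3a have runs of 2 and 3. On the coding strand alone, a run of at least 8 bases made only of C and T stood in this window for 11 of the 50 members (22.0%), 2 of the 5 TOP members with an entry and 13.9% of 27025 genes. The window rests on 1 annotated start per transcript, so a missing run says only that these letters are not in this window.

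The libraries held 3958284 to 16429015 reads by RNA-seq, with fewer in both Y1CTL than in both Y1cKO libraries, and 7364523 to 11862838 reads by Ribo-seq. Values were deposited as RPKM, reads scaled to length and depth, over the transcript for RNA-seq and over the coding sequence for Ribo-seq. All 10 adipocyte markers were above 0 in every library, with a median of 552 and 313 RPKM in Y1CTL and 648 and 704 RPKM in Y1cKO by RNA-seq, higher in both Y1cKO libraries. The median of 10 beige markers by RNA-seq was 67.8 and 108 RPKM in Y1CTL and 19.6 and 64.4 RPKM in Y1cKO, lower in both Y1cKO libraries. The part of either in the RNA-seq differences was not tested. Lymphocyte markers, 17 in number, had a median of 14.8 RPKM in RNA-seq replicate 2 of Y1CTL, no more than 0.290 RPKM in any further RNA-seq library, and 51.5 to 57.8 RPKM by Ribo-seq. Skeletal muscle markers, also 17, had a median of 18.5 RPKM in RNA-seq replicate 1 of Y1cKO and no more than 0.499 RPKM elsewhere. By Ribo-seq the beige median was 602 RPKM in Y1CTL replicate 1 and 87.9 RPKM in Y1CTL replicate 2, against 332 and 301 RPKM in Y1cKO. In whole tissue, fewer cells of a type and less RNA per cell cannot be told apart. Ythdf1 itself had 8.01 and 11.5 RPKM in Y1CTL and 7.17 and 7.98 RPKM in Y1cKO by RNA-seq, counted over the whole transcript and not over the deleted exon.

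The factors differed widely in level, and Eef1a1 was the highest member in every library. Eef1a1, the eEF1A of most tissues, had 1209 and 1333 RPKM in Y1CTL and 1259 and 1069 RPKM in Y1cKO by RNA-seq, and 1963 and 1511 RPKM in Y1CTL and 1808 and 1708 RPKM in Y1cKO by Ribo-seq. Eif1, which guards start codon choice, had Ribo-seq values of 1268 and 960 RPKM in Y1CTL and 1316 and 1272 RPKM in Y1cKO. Eif5a had 969 and 918 RPKM in Y1CTL and 922 and 942 RPKM in Y1cKO by Ribo-seq. The groups overlapped for Eef1a1 and Eif5a, whereas the footprints of Eif1 were higher in both Y1cKO libraries. The helicase Eif4a1 was next, with Ribo-seq values from 735 to 814 RPKM. Over the 59 members measured in both assays, the median level of a library was 16.9 to 22.6 RPKM by RNA-seq and 67.3 to 74.2 RPKM by Ribo-seq. At the low end, Eef1akmt3, a lysine methyltransferase of eEF1A, had 0.201 to 0.650 RPKM by RNA-seq and 1 Ribo-seq read in all.

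eIF3, the scaffold on the small subunit, is built from subunits a to m, and with both genes of the loosely bound j subunit 14 symbols were present. The 12 subunits other than Eif3j1 and Eif3j2 lay within 1 order of magnitude of each other in every library. By RNA-seq they ran from 12.8 to 75.7 RPKM in Y1CTL replicate 1 and from 19.4 to 69.5 RPKM in Y1cKO replicate 2. By Ribo-seq they ran from 65.9 to 256 RPKM in Y1CTL replicate 2 and from 66.1 to 317 RPKM in Y1cKO replicate 2. The SD of their log2 levels was 0.51 to 0.68 by RNA-seq and 0.55 to 0.64 by Ribo-seq, ranges that overlapped. Eif3k and Eif3l were the highest by Ribo-seq, with 256 to 317 and 155 to 200 RPKM. Eif3j1 and Eif3j2, near-identical copies that may share reads, were listed in no Ribo-seq table, with 1.30 to 2.89 and 0 to 1.51 RPKM by RNA-seq.

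For the smaller complexes the spread differed between the assays. Eif2s1, Eif2s2 and Eif2s3x encode the 3 subunits of eIF2. By RNA-seq they had 14.1, 15.9 and 30.8 RPKM in Y1CTL replicate 1 and 8.17, 16.6 and 27.2 RPKM in Y1CTL replicate 2. By Ribo-seq the same libraries gave 74.2, 104 and 83.2 RPKM, and 67.8, 99.7 and 71.3 RPKM. The SD of their log2 levels was thus 0.61 to 0.87 by RNA-seq and 0.25 to 0.30 by Ribo-seq, lower by Ribo-seq in all 4 pairs of libraries. The 5 eIF2B subunits showed the other order, with 0.21 to 0.51 by RNA-seq and 0.48 to 0.69 by Ribo-seq. These are descriptions over 3 and 5 genes that share their libraries, and were not tested. Eif2s3y, the copy of Eif2s3x on the Y chromosome, had 13.6 and 29.6 RPKM in Y1CTL by RNA-seq and 20.003 and 44.3 RPKM by Ribo-seq, low in replicate 1 of both assays, against 22.6 to 26.4 and 37.7 to 37.9 RPKM in Y1cKO. Both copies are near-identical and may share reads.

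The eEF1 subunits were far from equal. Eef1b2, Eef1d and Eef1g encode the exchange factor and its scaffold. Eef1b2 had 24.5 and 43.1 RPKM in Y1CTL and 35.3 and 32.6 RPKM in Y1cKO by RNA-seq, and 198 and 135 RPKM in Y1CTL and 179 and 176 RPKM in Y1cKO by Ribo-seq. Eef1d had 62.7 to 70.5 RPKM and Eef1g 111 to 134 RPKM by Ribo-seq. The highest subunit stood 83.9 to 120 times above the lowest by RNA-seq and 24.1 to 27.8 times by Ribo-seq, and the SD of the log2 levels of these 4 was 2.75 to 3.01 and 2.01 to 2.10. Eef1a2, the eEF1A of muscle and neurons, had 0 reads in both Y1CTL RNA-seq libraries, where a count of 0 allows up to 0.364 and 0.290 RPKM, and 53 and 10 reads (2.08 and 0.292 RPKM) in Y1cKO. Its higher value fell in the library with 18.5 RPKM for the muscle markers, whose part in it was not tested, and no fold is given. It may also share reads with Eef1a1. Ribo-seq gave it 24 reads in Y1CTL replicate 1 and 0 in the other libraries.

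**Figure D1:**
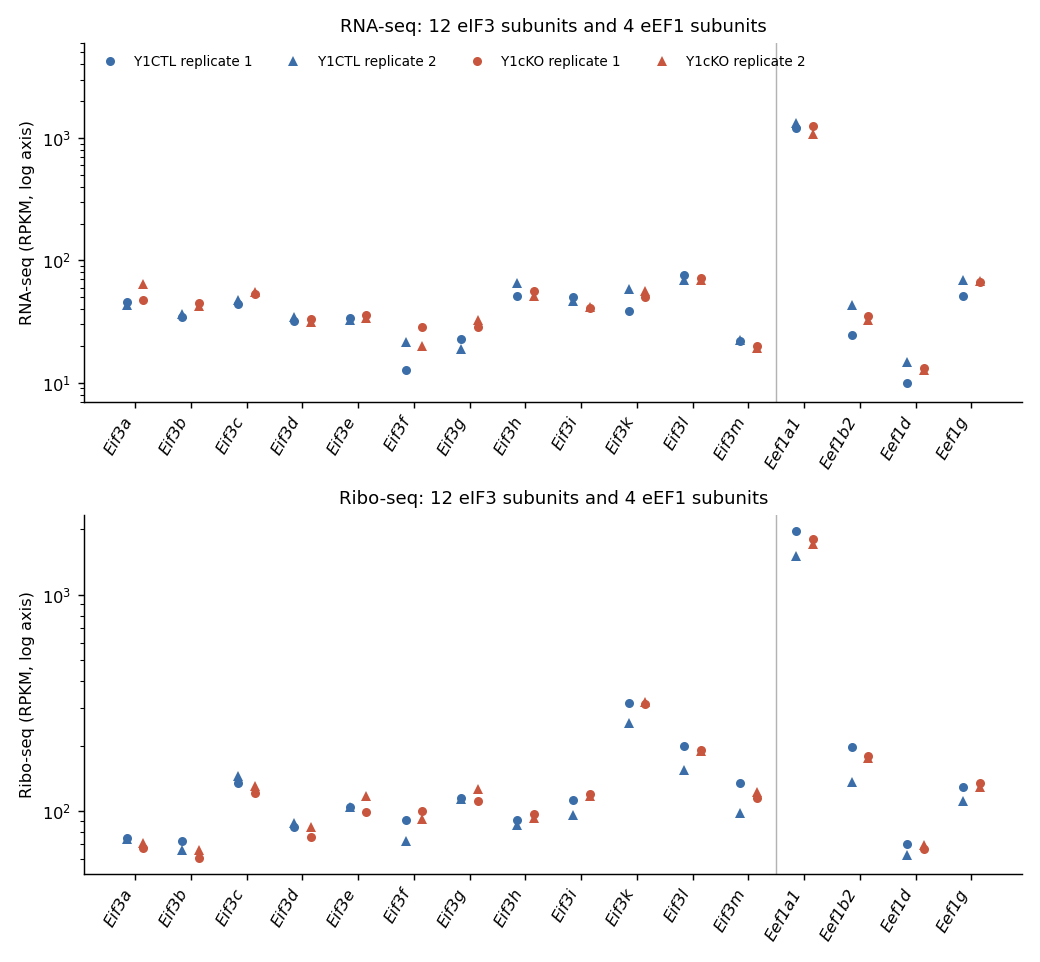
RPKM on a log axis of the 12 eIF3 subunits measured in both assays and of 4 eEF1 subunits, by RNA-seq (top) and Ribo-seq (bottom); blue points are Y1CTL, red points Y1cKO, circles replicate 1 and triangles replicate 2. The eIF3 subunits keep within 1 order of magnitude, Eef1a1 stands at 1069 RPKM or above in every library, and the TOP member Eef1b2 is high in Y1CTL replicate 1 by Ribo-seq (198 RPKM) and low there by RNA-seq (24.5 RPKM).

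No factor passed the test between genotypes in Ribo-seq, RNA-seq or translational efficiency (TE, the Ribo-seq over the RNA-seq value). limma on log2(RPKM + 0.5), a scale that understates the change of low genes, tested 59 members by Ribo-seq, 62 by RNA-seq and 59 for TE, and called 0 at an adjusted p of 0.05 in each. The share called among all genes was 0% by Ribo-seq, 0% by RNA-seq and 0% for TE. At an unadjusted p under 0.05 there were 5 members by Ribo-seq, 9 by RNA-seq and 6 for TE, or 8.47%, 14.5% and 10.2% of those tested, against 2.75%, 11.8% and 8.66% of all genes. Members with too few reads for the Ribo-seq and TE tests were Eef1a2, Eef1akmt3, Eif3j1, Eif3j2 and Eif4a3l1, of which Eef1akmt3 and Eif4a3l1 also missed the minimum by RNA-seq. Voom on the reads also called 0 members by Ribo-seq and 0 by RNA-seq.

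The whole RNA-seq distribution was shifted, with a median change over all genes of 0.17 (log2) by RNA-seq, 0.0071 by Ribo-seq and -0.17 for TE. The median over the 59 members was 0.14 by RNA-seq, 0.047 by Ribo-seq and -0.063 for TE. Relative to the shift, 28 of 62 members lay above the median gene by RNA-seq, 36 of 59 by Ribo-seq and 37 of 59 for TE. After scaling the libraries within an assay to a common median, the members with a change above 0 went from 46 to 29 of 62 by RNA-seq and from 22 to 33 of 59 for TE, and stayed at 36 of 59 by Ribo-seq. Both Y1cKO libraries lay above both Y1CTL libraries for 13 members by Ribo-seq, 24 by RNA-seq and 6 for TE, or 22.0%, 38.7% and 10.2% of those tested. All genes gave 15.4%, 36.9% and 9.53%. Both lay below for 4, 4 and 16 members, or 6.78%, 6.45% and 27.1%, against 14.1%, 10.7% and 29.8% of all genes. The members thus stood close to the background in RNA-seq and TE. For TE, whether groups overlapped, here and for single members, rests on pairing the RNA-seq and Ribo-seq libraries by number. It was not counted under another pairing.

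Among the regulators of eIF4E, Eif4ebp1 had the largest RNA-seq difference of a member with reads in every library. Its mRNA had 28.2 and 20.6 RPKM in Y1CTL and 49.1 and 57.7 RPKM in Y1cKO, from 204 to 1893 reads. Its footprints stood at 227 and 241 RPKM in Y1CTL and 260 and 227 RPKM in Y1cKO. The mRNA was therefore higher in both Y1cKO libraries while the footprints overlapped. On the log2 scale the RNA-seq change was 1.13 with a standard error of 0.22 (limma adjusted p = 0.401), or 0.97 after median scaling. The TE change was -1.07 with a standard error of 0.27 (limma adjusted p = 0.563), or -0.92 after median scaling. Without Y1CTL replicate 1, which leaves the Y1CTL RNA-seq library with lymphocyte transcripts, limma gave an adjusted p = 0.0278 for RNA-seq and an adjusted p = 0.0318 for TE. That fit takes the lone Y1CTL library of an assay to vary like the Y1cKO libraries. It called 5.33% of all genes by RNA-seq and 8.14% for TE, against 1 of 62 and 1 of 59 members (1.61% and 1.69%), Eif4ebp1 in both. Over all alternatives the limma adjusted p of Eif4ebp1 ranged from 0.0278 to 0.997 by RNA-seq and from 0.0318 to 1.00 for TE.

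Eif4ebp3, another 4E-BP, had higher values in both assays. It had 6.45 and 7.58 RPKM in Y1CTL and 10.02 and 11.9 RPKM in Y1cKO by RNA-seq, and 5.56 and 5.38 RPKM in Y1CTL and 8.67 and 7.67 RPKM in Y1cKO by Ribo-seq. The groups did not overlap, from only 12 to 25 Ribo-seq reads, and the Ribo-seq log2 fold change was 0.54 (standard error 0.17, limma adjusted p = 1.00). Eif4ebp2 overlapped between the groups in both assays, with 44.1 to 70.1 RPKM by Ribo-seq. Eif4enif1, the transporter that carries eIF4E into the nucleus, had 5.28 to 6.81 RPKM by Ribo-seq and overlapping groups.

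In the cap-binding group, Eif4e2 and Eif4e3 had lower and the scaffolds Eif4g1 and Eif4g3 higher RNA-seq values in both Y1cKO libraries, without passing the test. Of all genes, 10.7% were lower in both and 36.9% higher in both by RNA-seq. Eif4e2, the homolog 4EHP that represses translation, had 19.8 and 16.4 RPKM in Y1CTL and 10.6 and 12.6 RPKM in Y1cKO by RNA-seq, and 105 and 81.4 RPKM in Y1CTL and 99.0 and 96.3 RPKM in Y1cKO by Ribo-seq. Eif4e3 had 51.0 and 51.1 RPKM in Y1CTL and 38.9 and 37.5 RPKM in Y1cKO by RNA-seq, and 61.4 and 57.7 RPKM in Y1CTL and 78.6 and 64.3 RPKM in Y1cKO by Ribo-seq. Both mRNAs were lower in both Y1cKO libraries, the footprints of Eif4e2 overlapped, and those of Eif4e3 were higher in both. The RNA-seq log2 fold changes were -0.62 and -0.41 (standard errors 0.20 and 0.17, limma adjusted p = 0.402 and 0.422), or -0.78 and -0.58 after median scaling. Their TE changes were 0.70 and 0.67 (limma adjusted p = 0.563 for each). Eif4e itself overlapped between the groups, with 7.30 to 8.66 RPKM by RNA-seq and 79.8 to 94.3 RPKM by Ribo-seq. The scaffold Eif4g1 had 97.4 and 87.9 RPKM in Y1CTL and 117 and 118 RPKM in Y1cKO by RNA-seq, with 65.9 to 87.3 RPKM and overlapping groups by Ribo-seq. Its TE change was -0.54 (limma adjusted p = 0.563). Eif4g3 had 13.6 to 20.4 RPKM by Ribo-seq, with overlapping groups. The RNA-seq log2 fold changes of Eif4g1 and Eif4g3 were 0.34 and 0.18, where the median of all genes was 0.17. After median scaling they were 0.18 and 0.017.

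The helicase paralogs Eif4a1 and Eif4a2 each had higher RNA-seq values in both Y1cKO libraries, as had 36.9% of all genes. By Ribo-seq Eif4a2 was higher in both, as were 15.4% of all genes, whereas Eif4a1 overlapped. Eif4a1 had 108 and 91.1 RPKM in Y1CTL and 132 and 116 RPKM in Y1cKO by RNA-seq (log2 fold change 0.32). Eif4a2 had 60.9 and 58.5 RPKM in Y1CTL and 96.2 and 93.7 RPKM in Y1cKO by RNA-seq, and 125 and 89.2 RPKM in Y1CTL and 147 and 152 RPKM in Y1cKO by Ribo-seq. The groups did not overlap in either assay, and the log2 fold changes were 0.67 by RNA-seq (standard error 0.17, limma adjusted p = 0.402) and 0.50 by Ribo-seq (standard error 0.19, limma adjusted p = 1.00). Without Y1CTL replicate 2 the Ribo-seq value was 0.25. Eif4a3, of the exon junction complex, had 14.4 and 17.9 RPKM in Y1CTL and 25.2 and 24.9 RPKM in Y1cKO by RNA-seq (log2 fold change 0.63, limma adjusted p = 0.402), and overlapping Ribo-seq values of 54.95 to 66.7 RPKM. Its copy Eif4a3l1, with 1 RNA-seq read in all, may share reads with it. After median scaling the RNA-seq log2 fold changes of Eif4a1, Eif4a2 and Eif4a3 were 0.15, 0.50 and 0.47.

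Late in initiation, Eif5b was the member with the lowest Ribo-seq change. It had 13.03 and 19.0 RPKM in Y1CTL and 7.90 and 9.83 RPKM in Y1cKO by Ribo-seq, from 274 to 564 reads, and 12.3 and 11.6 RPKM in Y1CTL and 10.7 and 14.7 RPKM in Y1cKO by RNA-seq. The footprints were lower in both Y1cKO libraries while the mRNA overlapped. The Ribo-seq log2 fold change was -0.80 (standard error 0.23, limma adjusted p = 1.00), with -0.54 without Y1CTL replicate 2 and -1.07 without Y1CTL replicate 1, and the TE change was -0.87 (limma adjusted p = 0.563). Eif5, which triggers GTP hydrolysis on eIF2, and Eif6, which keeps the large subunit apart, had 83.1 to 99.4 and 48.4 to 58.9 RPKM by Ribo-seq. Both Y1cKO values of Eif6 were above both Y1CTL values.

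**Figure D2:**
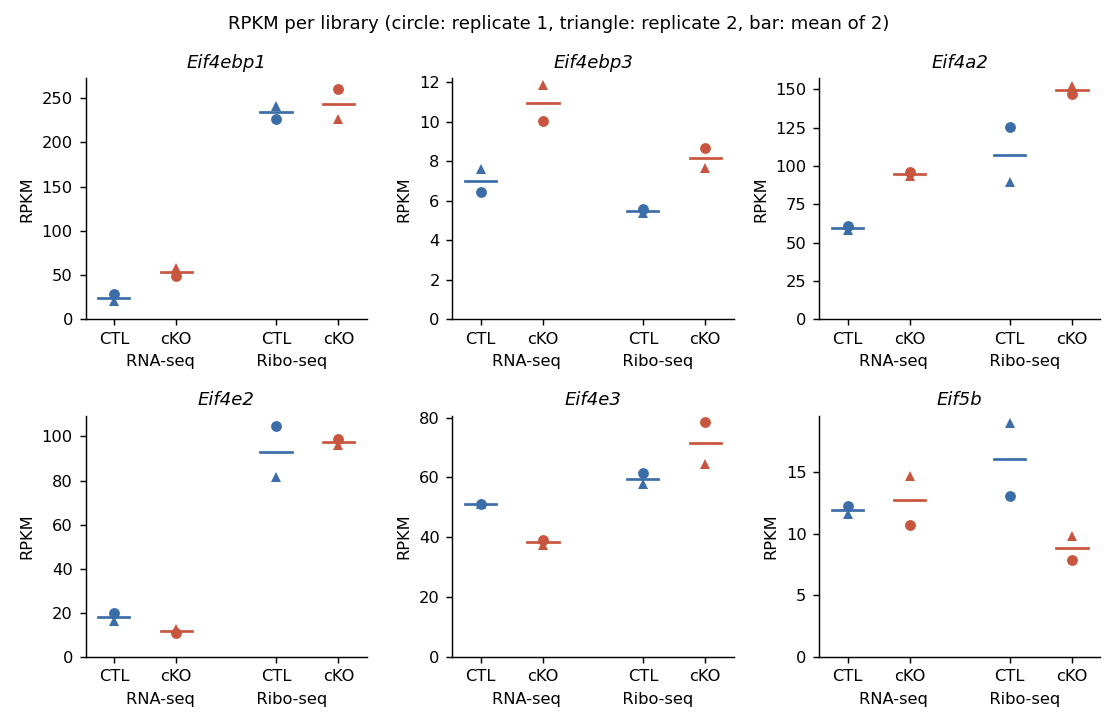
RPKM of 6 members in each library, with CTL for Y1CTL (blue) and cKO for Y1cKO (red), RNA-seq on the left and Ribo-seq on the right of each panel; circles are replicate 1, triangles replicate 2 and bars the mean of 2. The Eif4ebp1 points lie apart by RNA-seq (24.4 against 53.4 RPKM on average) and overlap by Ribo-seq, those of Eif5b lie apart by Ribo-seq (16.0 against 8.86 RPKM), and those of Eif4a2 and Eif4ebp3 are higher in Y1cKO in both, with no member passing the test.

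In eIF2 and its partners, the mRNA of Eif2d, a factor of ribosome recycling and non-canonical initiation, had 4.28 and 6.62 RPKM in Y1CTL and 9.25 and 9.82 RPKM in Y1cKO. Its Ribo-seq values were 8.87 and 8.42 RPKM in Y1CTL and 10.7 and 9.51 RPKM in Y1cKO. Both assays were higher in both Y1cKO libraries, and the log2 fold change was 0.78 by RNA-seq (limma adjusted p = 0.402) and -0.57 for TE (limma adjusted p = 0.583). Eif2s2 had 15.9 and 16.6 RPKM in Y1CTL and 21.9 and 23.7 RPKM in Y1cKO by RNA-seq, and overlapping Ribo-seq values of 95.7 to 104 RPKM. Of the eIF2B subunits, 3 had higher RNA-seq values in both Y1cKO libraries (Eif2b1, Eif2b3 and Eif2b5) and 1 did so by Ribo-seq (Eif2b5), where 36.9% and 15.4% of all genes did. The TE change of Eif2b2 was -0.53 (limma adjusted p = 0.659), with 5.04 RPKM in Y1CTL RNA-seq replicate 1 and 10.2 to 10.4 RPKM in the other RNA-seq libraries.

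The eIF3 subunits did not move as 1 group between the genotypes. By Ribo-seq, Eif3a, Eif3c and Eif3d were lower in both Y1cKO libraries, and Eif3f, Eif3h and Eif3i were higher in both, while 6 overlapped. Of all genes, 14.1% were lower in both and 15.4% higher in both by Ribo-seq. Eif3c had 134 and 145 RPKM in Y1CTL and 120 and 131 RPKM in Y1cKO, and Eif3i had 112 and 95.4 RPKM in Y1CTL and 119 and 117 RPKM in Y1cKO by Ribo-seq. By RNA-seq, Eif3a, Eif3b, Eif3c, Eif3e and Eif3g were higher in both Y1cKO libraries and Eif3i and Eif3m lower in both. The RNA-seq shares of all genes were 36.9% higher in both and 10.7% lower in both. Eif3i had 50.6 and 46.6 RPKM in Y1CTL and 41.0 and 41.2 RPKM in Y1cKO by RNA-seq. Thus Eif3a and Eif3c had higher RNA-seq and lower Ribo-seq values, and Eif3i lower RNA-seq and higher Ribo-seq values, in Y1cKO, and these directions held after median scaling, while that of Eif3e turned by RNA-seq. The lowest limma adjusted p of a subunit was 1.00 by Ribo-seq, 0.407 by RNA-seq and 0.563 for TE. The median log2 fold change of the 12 subunits was 0.049 by Ribo-seq, 0.11 by RNA-seq and -0.040 for TE. After median scaling it was -0.053 by RNA-seq and 0.11 for TE, and without Y1CTL replicate 2 it was -0.035 by Ribo-seq and -0.22 for TE.

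The 4 eEF1 subunits measured in both assays overlapped between the groups in Ribo-seq, RNA-seq and TE. Their median log2 fold change was 0.075 by Ribo-seq, with 0.23 when Y1CTL replicate 1 and -0.10 when Y1CTL replicate 2 was left out. The same medians were 0.070, -0.19 and 0.37 by RNA-seq and 0.010, 0.36 and -0.38 for TE. Eef2, the translocase, had 554 and 323 RPKM in Y1CTL and 476 and 446 RPKM in Y1cKO by Ribo-seq, and likewise overlapped. Its kinase Eef2k, which shuts elongation down, had 9.44 to 13.4 RPKM, with overlapping groups. Among the modifiers, the eEF1A methyltransferases Eef1akmt4 and Eef1akmt2 were among the 5 members with the highest Ribo-seq change. Eef1akmt4 had 2.31 and 1.60 RPKM in Y1CTL and 3.16 and 3.18 RPKM in Y1cKO by Ribo-seq, from 9 to 23 reads (log2 fold change 0.60, standard error 0.24, limma adjusted p = 1.00). Eef1akmt2 had 10.8 and 11.5 RPKM in Y1CTL and 14.4 and 15.6 RPKM in Y1cKO (log2 fold change 0.41, standard error 0.15, limma adjusted p = 1.00). The eEF2 methyltransferase Eef2kmt had 21.1 and 16.5 RPKM in Y1CTL and 22.0 and 23.7 RPKM in Y1cKO by Ribo-seq (log2 fold change 0.28, limma adjusted p = 1.00).

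**Figure D3:**
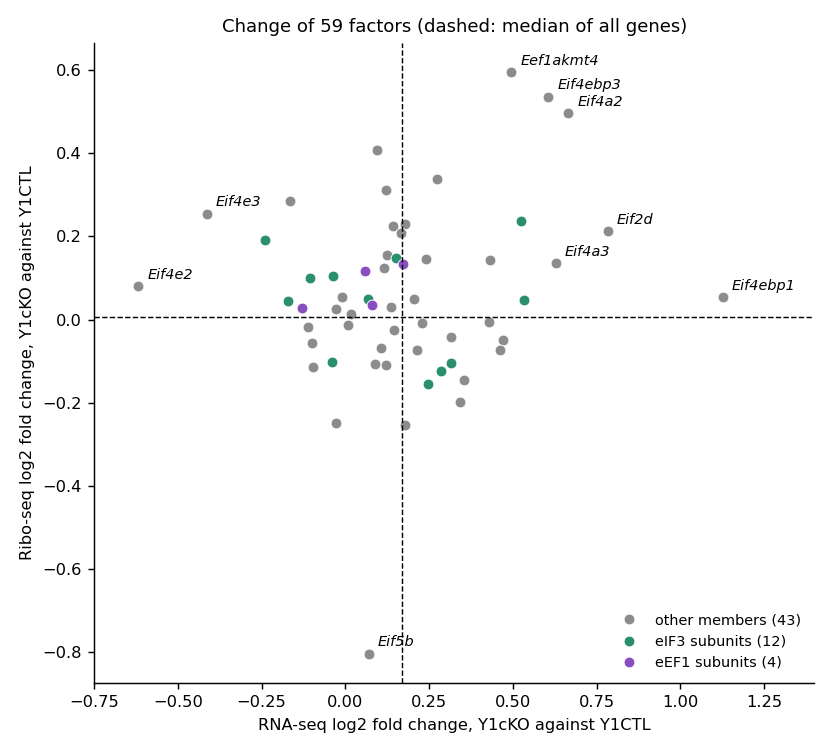
Log2 fold change of Y1cKO against Y1CTL of 59 members, RNA-seq on the x axis and Ribo-seq on the y axis, with eIF3 subunits in green, eEF1 subunits in purple and the other members in grey; dashed lines mark the median of all genes (0.17 by RNA-seq, 0.0071 by Ribo-seq). Most points sit near the crossing of these lines, Eif4ebp1 lies to the right (1.13 by RNA-seq) and Eif5b below (-0.80 by Ribo-seq), and no member passed the test in either assay.

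The TE level, unlike its change, separated the factors widely. It was taken as the log2 Ribo-seq over RNA-seq value over all 8 libraries, with each library centred on its median gene. The median was 0.56 over the 59 members and 0.11 over 11792 genes, whose quartiles were -0.78 and 1.01. limma called 34 members above 0 and 8 below, or 57.6% and 13.6% of 59, against 39.6% and 33.6% of all genes. With the libraries centred on genes over 50 RPKM, the medians were -0.50 and -0.96, and 14 members were called above 0 and 32 below. The zero point thus depends on the centring, whereas the gap between members and all genes, 0.45, is the same by construction. Among genes of at least 5 RPKM the gap was 0.24. The assays also differed in cell markers. The lymphocyte median was 0.162 and 14.8 RPKM in Y1CTL and 0.290 and 0.210 RPKM in Y1cKO by RNA-seq, against 51.5 to 57.8 RPKM by Ribo-seq. The part of cell composition in the TE levels was not tested. Across the 59 members, the TE level had a Pearson's r of 0.40 with the log2 ratio of transcript to coding length, and 0.31 across all genes, a description over genes that share their libraries. The part of this ratio in the TE levels was not tested. The values without length scaling, given below, differ from the others by this ratio and a constant, apart from the pseudocount. Their shifts, and those of the order of members, are thus built in by the listed lengths.

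The intervals and adjusted p of the TE levels come from a fit that takes all 8 libraries as independent, with no term for the animal. With the animal as a block, the lowest limma adjusted p of any gene was 0.000168. Eif1ax, the X-linked eIF1A, had the highest TE level, 3.73 (95% interval 3.46 to 3.99, limma adjusted p = 1.63e-06). Its Ribo-seq value was 33.4 and 22.2 times its RNA-seq value in Y1CTL and 21.5 and 24.4 times in Y1cKO. Its listed transcript has 5172 bases and a coding sequence of 432 bases, and without length scaling its TE level was 1.18. Eef1e1, a scaffold of the aminoacyl-tRNA synthetase complex and not an elongation factor proper, followed with 2.94, then Eif4e with 2.59, Eif1 with 2.21 and Eif4a1 with 1.96. Without length scaling these 4 were at 1.83, 0.69, 1.21 and 2.39. Eif1a, the autosomal paralog of Eif1ax, was at 0.057 (95% interval -0.28 to 0.39), below Eif1ax with no overlap of the intervals.

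At the other end stood Eif4enif1 with -1.75 (95% interval -2.05 to -1.45, limma adjusted p = 1.51e-05), Eif4g1 with -1.28, Eif4ebp3 with -1.20, Eif4g3 with -1.18 and Eif5b with -0.88. Without length scaling these were at -1.14, -0.55, -1.34, -1.001 and -1.01. Eef2, Eif2d and Eif4ebp2 were the other 3 called below 0, with -0.53, -0.47 and -0.46. Without length scaling Eef2 and Eif2d turned above 0, at 0.17 and 0.28, and Eif4ebp2 was at -3.46, the lowest of the 59 members. In the cap complex, Eif4a1 stood high in the order of the 59 members with and without length scaling (place 5 and place 3), and the scaffolds Eif4g1 and Eif4g3 stood low in both (places 58 and 56, and 51 and 53). Eif4e went from place 3 to place 30, the middle of the members, and Eif1ax from place 1 to place 20. Of the 4E-BPs, Eif4ebp1 was at 1.88 and Eif4ebp3 at -1.20, or 0.36 and -1.34 without length scaling. Paralogs differed in level as well, since Eif4a2 was at -0.097 against 1.96 for Eif4a1, and Eif4e3 at -0.28 against 1.84 for Eif4e2, intervals apart in each case. Without length scaling these 4 were at 0.86, 2.39, -1.32 and 0.96, in the same order.

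Of the 12 eIF3 subunits, 9 were called above 0 and 0 below, where 39.6% and 33.6% of all genes were. They ran from -0.31 (Eif3a) through 0.51 (Eif3l) to 1.72 (Eif3k), and the other 2 not called were Eif3b and Eif3h. The median of the subunits was 0.54. With centring on genes over 50 RPKM it was -0.52, with all genes at -0.96, so the calls depend on the zero point. Of the 4 eEF1 subunits, Eef1b2 (1.51) and Eef1d (1.54) were called above 0, and Eef1a1 (-0.31) and Eef1g (0.15) were not. In the eIF2 trimer the TE levels were 1.74 for Eif2s1, 1.51 for Eif2s2 and 0.56 for Eif2s3x. This is the reverse of their order by mean RNA-seq level, which is partly built in, since the TE level divides by that value. Without length scaling the TE levels were 0.90, 1.15 and 0.18, with Eif2s2 the highest.

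**Figure D4:**
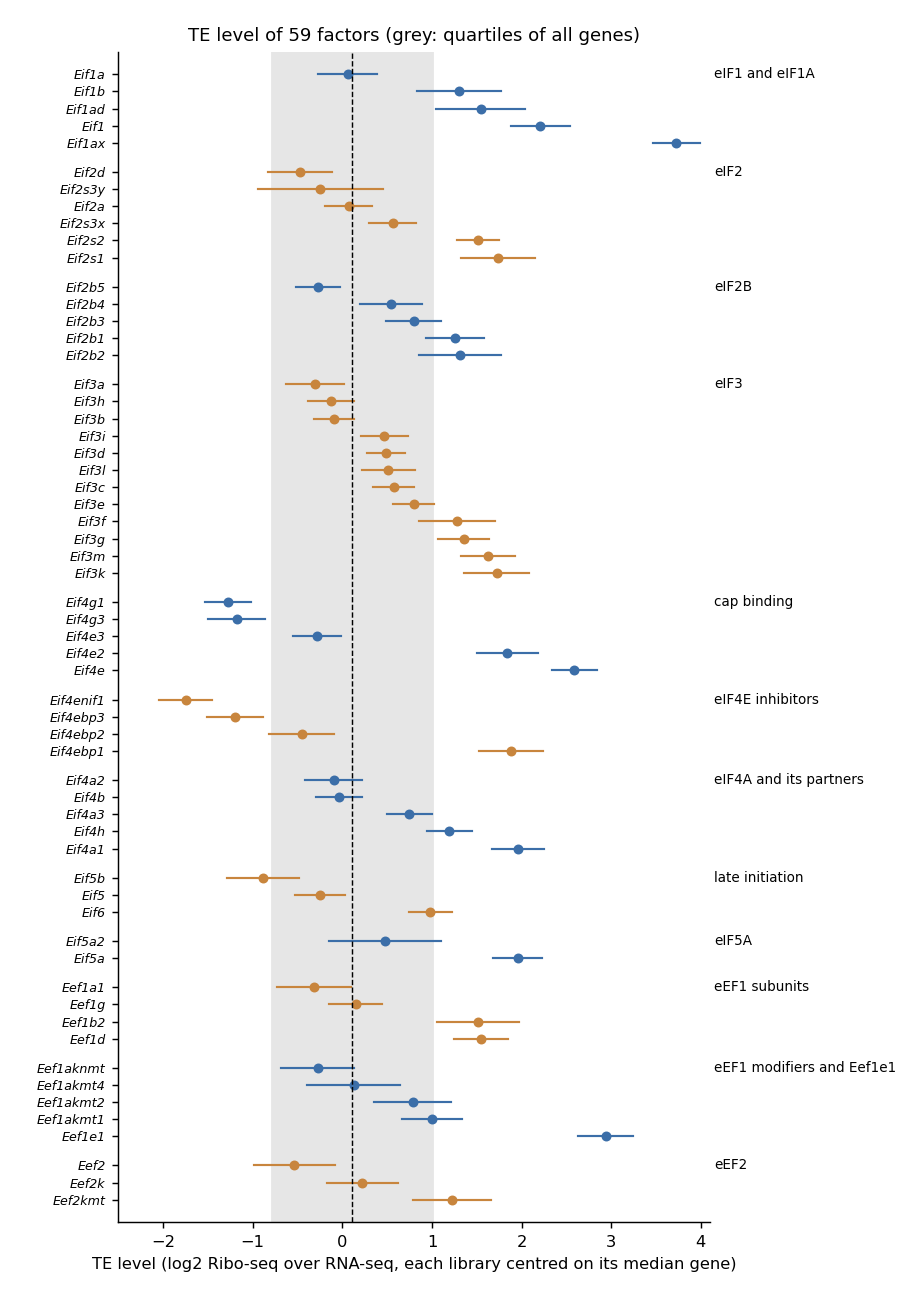
TE level (log2 Ribo-seq over RNA-seq, each library centred on its median gene) of 59 members by role, with points for the estimate over all 8 libraries and lines for the 95% interval from limma; the dashed line is the median of all genes (0.11) and the grey band their quartiles (-0.78 to 1.01). Eif1ax (3.73) and Eef1e1 (2.94) lie far above the band, and Eif4enif1, Eif4g1, Eif4ebp3, Eif4g3 and Eif5b below it.

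The TOP members differed together between the control replicates. By Ribo-seq all 9 were higher in Y1CTL replicate 1 than in Y1CTL replicate 2, with a median difference of 0.28 (log2), against 29 of 50 for the other members (median 0.063) and a median of -0.014 over all genes. Eef2 differed most (554 against 323 RPKM), followed by Eef1b2 (198 against 135 RPKM), and Eif3e least (105 against 104 RPKM). The cytosolic ribosomal protein genes, whose mRNAs are TOP mRNAs too, were higher in replicate 1 for 72 of 74, with a median of 0.36. By RNA-seq the order was the opposite, with 1 of 9 TOP members higher in Y1CTL replicate 1 (median -0.34) and 4 of 75 ribosomal protein genes (median -0.61), against a median of 0.060 for the other members. In Y1cKO, 7 of 9 TOP members were higher in replicate 1 by Ribo-seq (median 0.055), as were 68 of 74 ribosomal protein genes (median 0.17), against a median of -0.075 over all genes. By RNA-seq 8 of 9 were higher there (median 0.14) and 57 of 75 ribosomal protein genes (median 0.15), against 0.095 over all genes. These differences lie between single libraries and were not tested. The libraries concerned are those that also differed in beige markers by Ribo-seq (602 against 87.9 RPKM) and in lymphocyte markers by RNA-seq (0.162 against 14.8 RPKM), whose part was not tested. Between the genotypes the TOP members had a median change of 0.10 by Ribo-seq with 0 of 9 at an unadjusted p under 0.05 in limma.

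**Figure D5:**
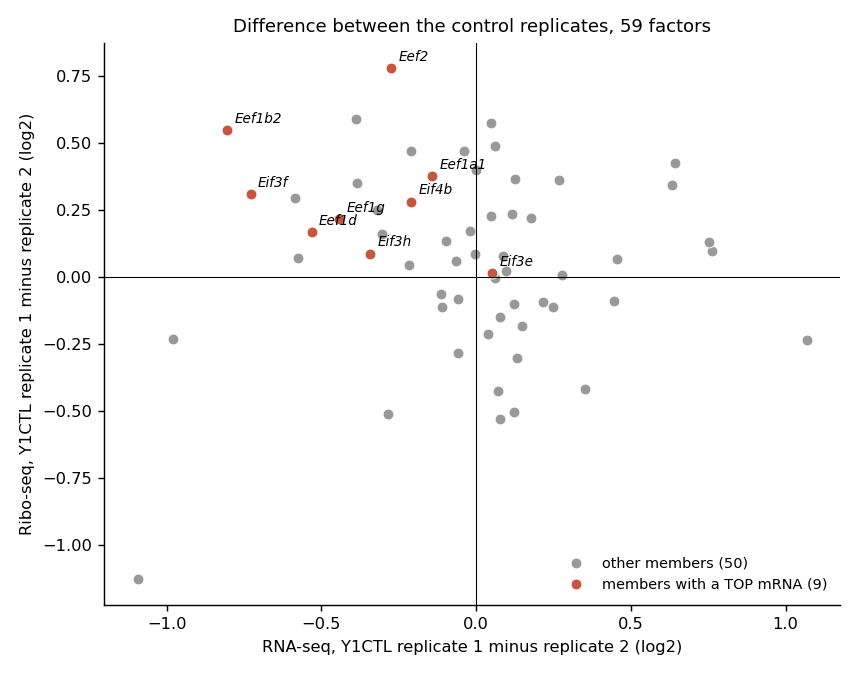
Difference between Y1CTL replicate 1 and Y1CTL replicate 2 (log2) of 59 members, by RNA-seq on the x axis and Ribo-seq on the y axis, with 9 TOP members in red and 50 other members in grey. All 9 TOP members lie above 0 on the Ribo-seq axis, and 8 of them lie left of 0 on the RNA-seq axis.

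The genes around the pathway, listed by hand, gave no call between genotypes either. Of 39 regulators and partners, among them mTOR and its complexes, eIF2 kinases, poly(A) binding proteins, release factors and the enzymes of hypusine and diphthamide, limma called 0 of 39 by Ribo-seq, RNA-seq and TE. At an unadjusted p under 0.05 there were 1, 4 and 5 (2.56%, 10.3% and 12.8%), against 2.75%, 11.8% and 8.66% of all genes. Larp1, the binding protein of TOP mRNAs, had 26.3 and 22.5 RPKM in Y1CTL and 38.1 and 34.2 RPKM in Y1cKO by RNA-seq, and 19.9 to 22.6 RPKM with overlapping groups by Ribo-seq. Dph3, which acts in making diphthamide on eEF2, had 2.06 and 3.31 RPKM in Y1CTL and 6.41 and 7.20 RPKM in Y1cKO by Ribo-seq, and 4.02 to 5.87 RPKM with overlapping groups by RNA-seq. Denr, which with Mcts1 acts in recycling as eIF2D does, had 7.34 and 6.55 RPKM in Y1CTL and 9.87 and 10.04 RPKM in Y1cKO by RNA-seq. The median change of the 39 was 0.0047 by Ribo-seq, 0.14 by RNA-seq and -0.14 for TE. For the TE level, limma called 15 above 0 and 17 below (38.5% and 43.6%), against 39.6% and 33.6% of all genes.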

How the data were processed

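After trimming, the authors mapped reads to mm8 (HISAT2 2.2.1) and deposited RPKM values, with 1 table for each library. DESeq2 also stands in the submitters' notes, without a role. How reads were counted, and on which annotation, is not given in the sources used. RNA-seq libraries came from polyadenylated RNA and Ribo-seq libraries from RNase I footprints. Of the values, at least 99.9% were within 0.01 read of a whole read number, which gave reads back, and 0 reads may stand for up to 3. This floor covers counting error only. The intervals of the TE levels come from limma and rest on the spread between libraries, part of which may be technical. Genes that a Ribo-seq table does not list were set to 0 in it.

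The test was limma 3.58.1 with an intensity trend in R 4.3.3, on log2(RPKM + 0.5), for genes averaging 0.5 RPKM or more in each assay used. TE change was the interaction of assay and genotype over 8 libraries, and Benjamini-Hochberg adjustment covered all genes tested. The main fits of the TE change and the TE level had no term for the animal. With 2 libraries per group no exact test of a single value can pass, so none was run. The members, roles and lists were chosen with earlier results of these data known. The text names all eIF3 and eEF1 subunits, members not tested, paralog pairs, the highest member of a role, and up to 5 members highest and 5 lowest per comparison with groups that do not overlap. Other members are named as examples, with their values seen. Eif4g2 was not analysed here.

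The labels state that lysate was split 1/5 to RNA-seq and 4/5 to Ribo-seq, so a shared number within a genotype was read as 1 animal. Their deviations from the group means had an r of -0.14 in Y1CTL and -0.24 in Y1cKO across 11792 genes. Libraries of a shared number also differed in markers. The lymphocyte median of Y1CTL replicate 1 was 0.162 RPKM by RNA-seq and 57.8 RPKM by Ribo-seq. In Y1cKO it was 0.290 and 55.8 RPKM in replicate 1, and 0.210 and 53.9 RPKM in replicate 2. The beige median was higher in Y1CTL replicate 2 by RNA-seq and in Y1CTL replicate 1 by Ribo-seq. Whether a number stands for 1 animal was not tested. The columns of the Y1cKO RNA-seq tables carry the other number than the labels, which were followed. Tests were checked on simulated data. Figures and tables were made with Python 3.11.15, pandas 2.3.3 and matplotlib 3.10.9.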

Additional observations from a re-analysis of the deposited data

How the results depend on the processing

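The members with the highest and lowest TE level were followed, and for each change those with the highest and lowest value among members whose groups did not overlap (up to 5 each way). No value turned direction under the alternatives run. For the changes this was partly fixed in advance, since leaving out a replicate cannot turn a change whose groups do not overlap. On significance, 438 values kept their side of the threshold. The values of Eif4ebp1 by RNA-seq and for TE crossed it without Y1CTL replicate 1. Among all members, the direction of 17 of 62 by RNA-seq and 11 of 59 for TE turned with median scaling, and the sign of the TE level of 12 of 59 turned without length scaling and of 18 with centring on genes over 50 RPKM. With the replicate number, or the animal for TE, as a block, limma called 0 members by Ribo-seq, RNA-seq and TE (in this balanced design a block leaves the log2 changes as they are by construction). Whether every sample correlated best with its own number cannot be judged with 2 pairs, and across genotypes the same numbers had an r of 0.033 by Ribo-seq and -0.021 by RNA-seq. With the RNA-seq numbers crossed in Y1cKO or in both genotypes, a pairing added after seeing the data, 0 members were called for TE.

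With each replicate left out, the members called ranged from 0 to 1 by RNA-seq and for TE (with 0% to 5.33% and 0% to 8.14% of all genes called in the same fits), and from 5 to 9 below 0 for the TE level. The median of all members ranged from 0.0028 to 0.12 by Ribo-seq, 0.13 to 0.17 by RNA-seq and -0.18 to -0.0099 for TE. That of eIF3 ranged from -0.035 to 0.10, 0.061 to 0.17 and -0.22 to 0.098, and that of eEF1 from -0.10 to 0.23, -0.19 to 0.37 and -0.38 to 0.36. Y1CTL replicate 1 or 2 set the ends of the eEF1 ranges. Median scaling moved the median of all members to -0.019 by RNA-seq and 0.091 for TE and that of eIF3 to -0.053 and 0.11.

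For the TE level, the median of all members and of eIF3 was 0.72 and 0.70 with no filter, 0.29 and 0.27 at a minimum of 5 RPKM, 0.69 and 1.24 without length scaling (added after seeing the data), and -0.50 and -0.52 with centring on genes over 50 RPKM, where eEF1 was at -0.24 and 14 members were called above and 32 below 0. At a minimum of 5 RPKM 17 were called below 0. Apart from these shifts of the zero point, the cause was not tested. Low depth in the Y1CTL RNA-seq libraries limits what can be said of members with few reads, such as Eef1akmt4 with 3 and 5 reads.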
